A study of Mus musculus with 22 samples.

Results

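The genes described here are 9 that are recurrently mutated in human myeloid leukaemia: Tet2, Dnmt3a, Asxl1, Npm1, Idh1, Idh2, Nras, Ptpn11 and Nf1. They were listed by name, not by a measured value, among the 21853 protein-coding genes of the GENCODE M21 annotation (GRCm38). The mark that was measured at them is acetylation of histone H3 at lysine 27 (H3K27ac). Chromatin immunoprecipitation sequencing (ChIP-seq) peaks were taken where they overlapped a gene body or lay within 10 kb of it.

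The 3 libraries came from KL cells, which are bone marrow progenitors that lack lineage markers and Sca1 and carry cKit. All 3 were of the genotype BcorΔE9-10, in male C57BL/6 mice with a conditional allele (Bcorfl/y) of the X-linked co-repressor gene Bcor and an scl-Cre-ERT transgene. Tamoxifen at 1 mg per day for 5 days, given by injection at 3 to 6 months of age, activated the recombinase, and cells were taken after 20 weeks. The Cre is driven by a stem cell promoter, and the excised allele (exons 9 and 10 removed) can still encode a truncated protein. The methods of the study give 3 mice for these libraries, and the labels number them as replicates 1, 2 and 3. Of the 22 samples of the series the other 19 were not analysed here, and with no BcorWT library of this mark there was no comparison between genotypes. Every value below therefore describes BcorΔE9-10 cells, and none of the 9 genes was itself altered by design.

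Histone acetyltransferases place H3K27ac on the nucleosomes beside active promoters and enhancers, and the stretch of DNA at an active start site is often free of nucleosomes. An active promoter therefore tends to show acetylation in flanks on either side of the start, or on the side into which the gene is read. The products of the 9 genes fall into groups. TET2 oxidises methylated cytosine and DNMT3A methylates cytosine, ASXL1 is a chromatin adaptor that works with the deubiquitinase BAP1, and IDH1 and IDH2 convert isocitrate to 2-oxoglutarate, the co-substrate of TET enzymes. NRAS is a small GTPase of growth factor signalling, PTPN11 (SHP2) is a phosphatase that promotes RAS activation, and NF1 (neurofibromin) switches RAS off. NPM1 is an abundant nucleolar chaperone.

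Depth recovered from the peak lists was 18.0 to 19.3 M reads, and a called summit rested on at least 8 fragments, so weaker acetylation is not represented. The height of a peak is its fold enrichment, the fragments at its summit over the local background of the same library. The median gene with a peak at a transcription start site (TSS) had a fold of 9.07, 9.26 and 10.7 in the 3 libraries in turn, so genes were ranked within each library. A percentile of 50 marks that median gene. The cell label was checked against marker genes fixed for this purpose. All 7 progenitor genes (Kit, Gata2, Myb, Runx1, Spi1, Cebpa and Mpo) had a TSS peak in all 3 libraries, and Ly6a, which encodes Sca1, had none. A TSS peak in all 3 libraries was found for 1 of 6 lymphoid, 0 of 6 mature myeloid, 0 of 5 erythroid and 0 of 8 non-haematopoietic marker genes.

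H3K27ac was called at the start of every one of the 9 genes in every library. A TSS peak here is a peak within 2.5 kb of the start of any protein-coding transcript of the gene, and 43.3% of all protein-coding genes had one in all 3 libraries (49.2% in at least 1). The 9 genes differed widely in height. At the first start Nras stood at the 92.2 percentile of all genes with a peak there, Nf1 at 82.9, Tet2 at 80.3 and Npm1 at 22.7. The windows held 32 peaks in replicate 1, 41 in replicate 2 and 40 in replicate 3, which merged into 46 regions. Of the 13 regions at the first coding start (the most 5′ start of a protein-coding transcript), 12 were called in all 3 libraries. Of the 26 regions inside the genes and away from their starts, 6 were called in all 3 libraries and 15 in only 1.

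**Figure D1:**
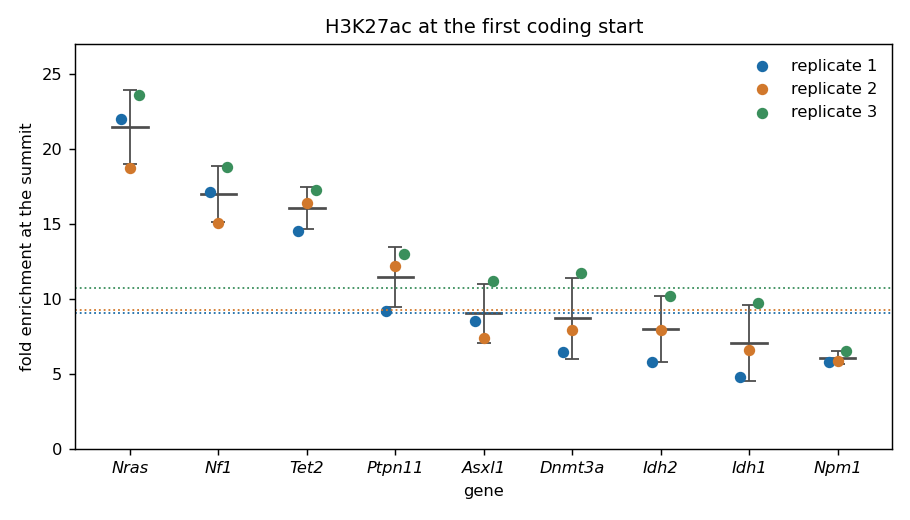
Fold enrichment of the highest H3K27ac peak at the first coding start (y axis, ratio to local background) for each of the 9 genes (x axis, ordered by mean), with 1 point per library, a bar for the mean and whiskers for the SD (n = 3). Dotted lines give the median over all genes with a TSS peak in the library of that colour; the points of Nras, Nf1 and Tet2 lie above all 3 lines and those of Idh2, Idh1 and Npm1 below their own.

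To show the DNA at these starts, promoter sequences were matched by symbol for 8 of the 9 genes, which gave 11 promoters. Each holds 300 bases, 250 before to 50 after a RefSeq start (GRCm38.p6). Not all of these bases lay inside peaks. For Asxl1 the number inside was 122, 230 and 120 in replicates 1, 2 and 3, and for Nras 127, 137 and 143. Npm1 was not matched. The sequences below are printed 5′ to 3′ on the strand of the gene, with every CG dinucleotide (CpG), the site of DNA methylation, in capitals. They were chosen for the contrasts on which the results turn. Tet2 has the promoter richest in CpG and the broadest acetylation at the first coding start, Asxl1 broad acetylation on the promoter poorest in CpG, Nras the highest peak, Idh1 a promoter shared with another gene, and Dnmt3a an internal promoter.
Tet2, chr3:133544341-133544640, minus strand: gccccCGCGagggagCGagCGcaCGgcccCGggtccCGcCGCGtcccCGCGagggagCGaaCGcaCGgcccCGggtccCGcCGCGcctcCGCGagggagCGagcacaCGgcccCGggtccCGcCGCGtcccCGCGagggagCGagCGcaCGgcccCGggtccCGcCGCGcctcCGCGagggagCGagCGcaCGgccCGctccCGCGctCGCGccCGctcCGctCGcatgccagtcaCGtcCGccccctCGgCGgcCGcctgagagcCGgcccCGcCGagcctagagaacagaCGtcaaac
Asxl1, chr2:153345580-153345879, plus strand: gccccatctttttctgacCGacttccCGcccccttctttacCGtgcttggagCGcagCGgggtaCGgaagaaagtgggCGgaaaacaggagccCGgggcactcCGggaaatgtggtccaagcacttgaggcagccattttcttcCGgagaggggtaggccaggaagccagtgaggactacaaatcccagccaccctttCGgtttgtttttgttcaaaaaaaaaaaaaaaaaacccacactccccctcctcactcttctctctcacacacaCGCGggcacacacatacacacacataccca
Nras, chr3:103058035-103058334, plus strand: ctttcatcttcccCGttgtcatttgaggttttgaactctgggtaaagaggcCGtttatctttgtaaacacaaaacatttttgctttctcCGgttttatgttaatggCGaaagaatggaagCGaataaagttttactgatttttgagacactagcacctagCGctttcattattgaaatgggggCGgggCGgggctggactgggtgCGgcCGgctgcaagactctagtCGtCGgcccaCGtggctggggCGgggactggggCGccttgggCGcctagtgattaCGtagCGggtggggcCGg
Idh1, chr1:65186430-65186729, minus strand: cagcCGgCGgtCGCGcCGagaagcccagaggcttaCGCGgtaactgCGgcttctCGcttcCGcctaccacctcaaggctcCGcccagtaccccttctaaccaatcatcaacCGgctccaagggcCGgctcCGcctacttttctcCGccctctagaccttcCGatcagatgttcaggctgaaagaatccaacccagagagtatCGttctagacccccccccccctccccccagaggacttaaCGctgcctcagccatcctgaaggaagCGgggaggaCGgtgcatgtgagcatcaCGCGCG
Dnmt3a internal, chr12:3891494-3891793, plus strand: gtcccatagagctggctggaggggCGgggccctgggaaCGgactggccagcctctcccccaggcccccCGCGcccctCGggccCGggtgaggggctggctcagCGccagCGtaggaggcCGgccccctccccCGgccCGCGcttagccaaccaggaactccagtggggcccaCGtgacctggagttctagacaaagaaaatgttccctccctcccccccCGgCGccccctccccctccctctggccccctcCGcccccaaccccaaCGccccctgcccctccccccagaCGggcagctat

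The Tet2 promoter held 57 CpG in 300 bases, which placed it at the 99.9 percentile of 32851 promoters. The 2 promoters at the 5′ end of Dnmt3a held 46 and 47, that of Ptpn11 held 37 and that of Nf1 held 30. Idh1 had 23 at each of its 2 promoters, Idh2 had 20, Nras 19, the internal promoter of Dnmt3a 18 and Asxl1 13. The median over all promoters was 7 CpG, and over the 9636 promoters of genes with a TSS peak in all 3 libraries it was 22. Of the short motifs searched on both strands, GGGCGG (the core of a GC box) was in all 11 promoters, in 35.7% of all promoters and in 64.2% of those of genes with a TSS peak. The promoter of Dnmt3a with 47 CpG held 7 copies. This motif and the ETS-type, E-box and GCATGCG motifs below each contain a CG and so overlap with the CpG count. CCGGAAG (an ETS-type site) was in 3 of the 11, those of Asxl1, Ptpn11 and Nf1, in 8.86% of all promoters and in 20.6% of those of genes with a TSS peak. CACGTG (an E-box) was in 2 of 11 (7.15% of all and 10.4% with a TSS peak), CCAAT in 2 (37.4% and 37.6%) and GCATGCG, at Tet2, in 1 (3.58% and 7.10%). TATAAA (13.6% and 6.38%) and GATAAG (7.44% and 4.75%) were in 0 of the 11, which says only that these letters were not in the windows.

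Of the DNA methylation genes, Tet2 was acetylated in all 3 libraries at its start alone and Dnmt3a at several places. Tet2, the dioxygenase gene, spans 81.5 kb of chromosome 3 on the minus strand (ENSMUSG00000040943.12, 133463679 to 133545139). Its TSS peak had a fold of 14.5, 16.4 and 17.2 in replicates 1, 2 and 3, a mean of 16.0 ± 1.39 (SD, n = 3), on 47, 55 and 59 fragments at the summit. It covered 1968, 1971 and 1996 bp, the widest acetylation at the first start among the 9 genes in each library and at the 92.6 ± 1.41 percentile of all genes. The breadth differed by less between libraries than that of any other of the 9 genes, with an SD of 15.4 bp. In replicate 1 it was called as 2 peaks of 1465 and 503 bp and in the others as 1. Acetylation reached 55 to 105 bp upstream of the GENCODE start and 1891 to 1916 bp into the gene. Measured from that start, 96.0% ± 1.24 of the covered bases lay downstream. The printed promoter, whose RefSeq start lies 749 bp downstream of the GENCODE start, was inside a peak over all 300 bases in all 3 libraries. Acetylation therefore lay on both sides of the RefSeq start.

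No peak elsewhere in Tet2 was called in more than 1 library. Replicate 2 alone held 2 intron peaks, at 19.1 kb (fold 3.44, 10 fragments) and 26.4 kb (fold 3.97, 11 fragments) from the start.

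Dnmt3a, which encodes a de novo methyltransferase, had acetylation at 4 places along the gene in all 3 libraries. It spans 108 kb of chromosome 12 on the plus strand (ENSMUSG00000020661.15, 3806007 to 3914443). At the 5′ end the fold was 6.49, 7.94 and 11.7 in replicates 1, 2 and 3, a mean of 8.71 ± 2.69 (SD, n = 3). The replicates differed by more than the shift of the whole libraries, since the percentile was 30.0, 39.8 and 56.3. Depth was also lowest in replicate 1 and highest in replicate 3, and its part in the difference was not tested. The peaks covered 1342, 1804 and 1771 bp, all or nearly all downstream of the GENCODE start. That start was inside a peak only in replicate 3, whereas the RefSeq starts 453 and 633 bp further downstream were inside a peak in all 3 libraries.

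A promoter inside the gene gives a shorter form of DNMT3A. Around this internal start, 85217 bp from the first (RefSeq start), the fold was 8.53, 6.62 and 8.78 in replicates 1, 2 and 3, a mean of 7.98 ± 1.19 (SD, n = 3). The internal start was the higher of the 2 in replicate 1 and the lower in replicates 2 and 3. The log2 ratio of first to internal start was 0.09 ± 0.43, with p = 0.75 in an exact two-sided sign-flip permutation test over the 3 libraries, whose smallest possible p is 0.25. In each library a higher peak lay upstream of the internal start and lower ones downstream. The start itself was in the gap between them in all 3 libraries, and 195 to 200 of the 300 printed bases were inside a peak.

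Between these starts lay 2 acetylated regions of the Dnmt3a introns, both in all 3 libraries and both over 2.5 kb from any coding start. The first, 27.9 kb from the start (chr12:3833543-3835238), had a fold of 5.12, 4.96 and 5.85. The second, at 49.5 kb (chr12:3855268-3856704), had a fold of 5.46, 4.96 and 4.67, with the summits at different places in the region between libraries. Their highest summits rested on 14 to 18 fragments. The 200 bases about the middle summit of each are shown to compare them with the promoters, on the plus strand and again with CG in capitals.
Dnmt3a intron region at 27.9 kb, chr12:3833870-3834069: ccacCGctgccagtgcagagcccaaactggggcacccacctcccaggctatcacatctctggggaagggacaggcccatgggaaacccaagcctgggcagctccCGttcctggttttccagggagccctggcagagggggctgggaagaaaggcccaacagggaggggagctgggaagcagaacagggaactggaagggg
Dnmt3a intron region at 49.5 kb, chr12:3855871-3856070: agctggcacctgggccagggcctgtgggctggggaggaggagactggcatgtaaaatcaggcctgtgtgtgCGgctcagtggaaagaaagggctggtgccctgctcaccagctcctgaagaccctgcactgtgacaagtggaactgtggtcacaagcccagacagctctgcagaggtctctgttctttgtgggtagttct
They held 2 and 1 CpG, where the median over 9146 windows of the same length at distal peaks of replicate 3 was 3. None of the other 7 motifs was in either window, GGGCGG included, which was in 7.09% of the distal windows, CCGGAAG in 1.73%, CCAAT in 18.2%, CACGTG in 3.53%, TATAAA in 6.91%, GATAAG in 5.63% and GCATGCG in 0.886%.

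Asxl1, the chromatin adaptor, had a broad peak of middling height. It spans 58.2 kb of chromosome 2 on the plus strand (ENSMUSG00000042548.14, 153345829 to 153404007). The fold was 8.55, 7.36 and 11.2 in replicates 1, 2 and 3, a mean of 9.04 ± 1.97 (SD, n = 3), at the 44.9 ± 8.99 percentile. The covered length was 1515, 1722 and 1942 bp, at the 87.2 ± 3.20 percentile, at rank 2 or 3 among the 9 genes in each library. The start was inside the main peak in all 3 libraries, and a small second peak with a fold of 3.64, 3.24 and 5.29 lay 0.4 to 0.5 kb upstream. Replicate 3 alone held 3 intron peaks 4.0 to 5.4 kb from the start, with folds of 3.39 to 3.54.

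The isocitrate dehydrogenase genes were among the lower peaks. Idh2, for the mitochondrial enzyme, spans 20.5 kb of chromosome 7 on the minus strand (ENSMUSG00000030541.16, 80094846 to 80115392). Its fold was 5.81, 7.94 and 10.2 in replicates 1, 2 and 3, a mean of 7.98 ± 2.18 (SD, n = 3), on 18, 26 and 34 fragments. The covered length was 928 and 895 bp in replicates 1 and 2 and 1669 bp in replicate 3, so the libraries fell at the 54.4, 48.9 and 84.0 percentiles. No intragenic peak was called in it.

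Idh1, for the cytosolic enzyme, spans 27.9 kb of chromosome 1 on the minus strand (ENSMUSG00000025950.16, 65158616 to 65186500). The only peak at its first start had a fold of 4.78, 6.62 and 9.75, a mean of 7.05 ± 2.52 (SD, n = 3), and covered 444, 606 and 442 bp, the narrowest of the 9 genes in each library. The summits rested on 13 fragments (6.92 to 22.2), 19 (11.4 to 29.7) and 29 (19.4 to 41.6), so these counts overlapped within counting error between replicates 1 and 2 and between 2 and 3, and those of replicates 1 and 3 overlapped at the ends of their intervals. All of the peak lay upstream of the start, with 0 bp downstream. This stretch is the 5′ end of Pikfyve, a lipid kinase gene read the other way, whose first coding start lies 202 bp away, and it is also the only TSS peak of Pikfyve. Whether the acetylation belongs to Idh1 or to Pikfyve cannot be told apart from the peaks. Only 12, 36 and 0 of the 300 printed bases were inside a peak.

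Idh1 had more acetylated bases at an internal coding start, 7358 bp into the gene by the RefSeq start. There the highest fold was 4.63, 4.25 and 7.23 in replicates 1, 2 and 3, over 574, 1342 and 943 bp. The first start had the higher fold in all 3 libraries, with a log2 ratio of 0.37 ± 0.30 and p = 0.25, the smallest that the exact two-sided sign-flip permutation test can give. Counting both starts, the covered length of Idh1 was at the 73.5 percentile, with the first start alone at the 20.5 percentile and with only the peak of the highest fold at the 31.1 percentile.

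The 3 RAS genes were all above the median gene in fold in every library. Nras spans 9.63 kb of chromosome 3 on the plus strand (ENSMUSG00000027852.14, 103058285 to 103067914). Its fold was 22.0, 18.8 and 23.6 in replicates 1, 2 and 3, a mean of 21.5 ± 2.47 (SD, n = 3), on 84, 74 and 95 fragments (exact Poisson 95% intervals 67.0 to 104, 58.1 to 92.9 and 76.9 to 116, which cover counting error only). These were the highest values of the 9 genes in each library, at the 92.2 ± 1.59 percentile of all genes. The main peak covered 815, 705 and 633 bp downstream of the start, with its upstream edge close to the start in every library. A second peak 0.3 kb upstream had a fold of 5.01, 7.06 and 5.36. Between them they covered 1100, 1001 and 895 bp, at the 55.9 ± 9.07 percentile. No other peak was called within Nras or 10 kb of it, and Ampd1, the next gene downstream, had no TSS peak in any library.

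Nf1, the negative regulator, is the longest of the 9 genes at 242 kb of chromosome 11 on the plus strand (ENSMUSG00000020716.16, 79339693 to 79581612). The fold at its start was 17.1, 15.1 and 18.8 in replicates 1, 2 and 3, a mean of 17.0 ± 1.88 (SD, n = 3), and the single peak covered 1266, 1417 and 1301 bp. It spread further upstream than downstream, with 43.0% ± 0.876 of its bases on the downstream side. Except for Idh1, whose peak was wholly upstream, the other 7 genes had over 50% of the covered bases downstream, and over all genes with a peak at the first start in all 3 libraries the median share was 77.6% and 81.1% of genes were above 50%.

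Ptpn11, the phosphatase gene, spans 60.9 kb of chromosome 5 on the minus strand (ENSMUSG00000043733.14, 121130533 to 121191397). The fold was 9.19, 12.2 and 13.0 in replicates 1, 2 and 3, a mean of 11.5 ± 2.02 (SD, n = 3). Replicates 1 and 3 had the same 52 fragments at the summit, with a local background of 4.77 fragments in replicate 1 and 3 in replicate 3. The summit was 0.20 kb downstream of the start in replicate 1, 0.23 kb downstream in replicate 2 and 0.25 kb upstream in replicate 3. In replicates 1 and 2 the acetylation was called as a peak on each side of the start and in replicate 3 as 1 peak of 1405 bp. A peak 67.4 kb from the start, beyond the 3′ end, had a fold of 7.15 in replicate 3 and 2.75 in replicate 2 and was not called in replicate 1.

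Npm1, for the nucleolar chaperone, had the lowest fold of the 9 genes in replicates 2 and 3. With −log10 p in place of fold, counting all coding starts, Npm1 was at the 26.5 percentile, above Idh1 at 24.4. It spans 10.9 kb of chromosome 11 on the minus strand (ENSMUSG00000057113.13, 33152287 to 33163206). The highest fold was 5.80, 5.88 and 6.55 in replicates 1, 2 and 3, a mean of 6.08 ± 0.41 (SD, n = 3), at the 22.7 ± 1.15 percentile. The acetylation formed 2 peaks of like height on either side of the start in every library. The upstream peak had a fold of 5.80, 5.88 and 5.53 and the downstream peak 5.80, 4.79 and 6.55, and the start lay in the gap. Together they covered 733, 873 and 703 bp, at the 40.4 ± 7.07 percentile. With only the peak of the higher fold counted, the breadth percentile was 14.9. No peak was called in the body of Npm1, and Fgf18, the neighbour beyond its 3′ end, had no TSS peak in any library.

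The first start was inside a peak in all 3 libraries for 4 of the 9 genes, Tet2, Asxl1, Ptpn11 and Nf1. Over all genes with a peak at the first start in all 3 libraries the share was 31.2%. The start of Nras was just outside its peak in replicate 1 and inside it in replicates 2 and 3. Those of Npm1, Idh1 and Idh2 were outside in every library, although the RefSeq start of Idh2, 42 bp further downstream, was inside in replicates 2 and 3.

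In the order of mean fold at the first start, Nras was followed by Nf1, Tet2, Ptpn11, Asxl1, Dnmt3a, Idh2, Idh1 and Npm1. The only neighbours in that order whose ranges over the libraries did not overlap were Tet2 and Ptpn11, with a log2 ratio of 0.50 ± 0.14 and Tet2 higher in all 3 libraries. Nras was above Nf1 in all 3 libraries by a log2 ratio of 0.34 ± 0.03, while Nf1 and Tet2 changed places in replicate 2. Asxl1, Dnmt3a and Idh2 also changed places between libraries. No exact sign-flip permutation test over 3 libraries can give a p below 0.25, so none of these differences could pass a threshold of 0.05. In all 3 libraries 4 genes were above the median gene in fold: Nras, Nf1, Tet2 and Ptpn11.

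Height and breadth did not give the same order. Counting all coding starts of a gene, the median percentile of the 9 genes was 47.6 ± 8.05 for fold (SD over 3 libraries) and 73.1 ± 1.83 for covered base pairs, where the median over all genes is 50 by construction. In all 3 libraries 6 of the 9 genes were above the median in covered length. Idh1 was among them only through its internal start, with percentiles of 18.4, 28.2 and 14.9 at the first start alone. The share of all genes above the median in all 3 libraries was not determined for covered length or for fold. Asxl1 and Dnmt3a were broad with a fold below that of the median gene on average. Nras was high, with a covered length near that of the median gene (percentile 54.1 ± 8.94). At the first start alone Nras was at rank 1 in height but rank 6 or 7 in breadth.

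**Figure D2:**
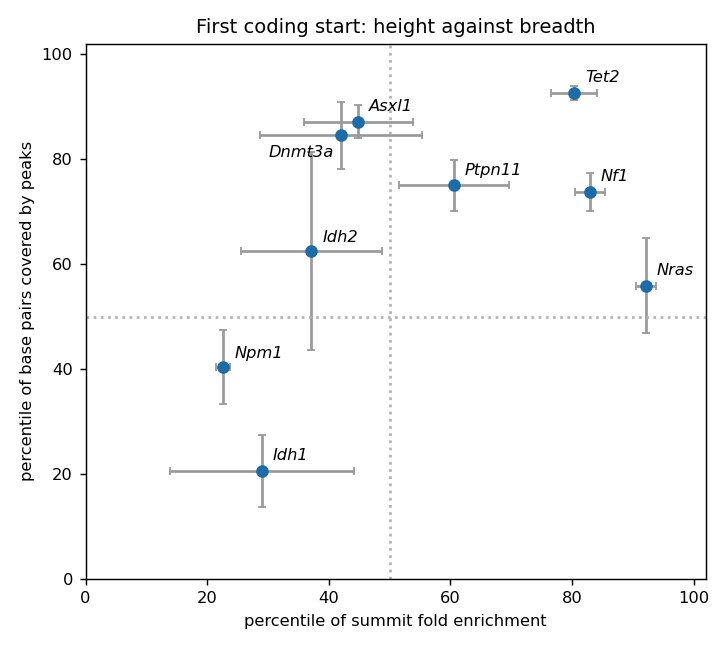
Percentile of fold enrichment (x axis) against percentile of base pairs covered by peaks (y axis) at the first coding start, each among all protein-coding genes with a peak there in the same library, as the mean and SD over 3 libraries. Dotted lines mark the median gene. Nras is furthest right at 92.2 with a breadth of 55.9, and Tet2 highest at 92.6.

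An intragenic peak, inside the gene body and over 2.5 kb from each of the gene's own coding starts, was found in all 3 libraries for 2 of the 9 genes, Dnmt3a and Nf1. Of all protein-coding genes 7.77% had one, and 14.1% of those with a TSS peak in all 3 libraries. Among genes with a TSS peak in all 3 libraries, the share depends on gene length. It was 43.0% for genes of 100 to 250 kb, which holds Dnmt3a and Nf1, 24.7% for genes of 50 to 100 kb, which holds Tet2, Asxl1 and Ptpn11, and 1.76% for genes up to 10 kb, which holds Nras. Tet2 had intragenic peaks only in replicate 2 and Asxl1 only in replicate 3. Ptpn11 had 1 in replicate 1 and 5 in replicate 2, with none at the same place in both, and Npm1, Idh1, Idh2 and Nras had none. The 15 regions called in 1 library had folds of 2.91 to 3.97 on 9 to 19 fragments, close to the calling limit, and 8 of them were from replicate 2.

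In Nf1 the intragenic peaks were clustered. They formed 13 regions, of which 4 were in all 3 libraries, and most lay 179 to 191 kb from the start, in an Nf1 intron that holds the genes Evi2a, Evi2b and Evi2, named for a viral integration site, on the opposite strand. Of the 13 regions 8 were within 2.5 kb of a coding start of these genes, including 3 of the 4 that were in all libraries. Counted as TSS peaks of their own genes, the fold was 4.93 ± 0.99 at Evi2b, 5.06 ± 0.61 at Evi2a and 4.62 ± 0.16 at Evi2 (SD, n = 3), where the 3 genes share some of the peaks. The remaining region in all libraries, at 179.6 kb, had a fold of 3.72, 4.60 and 4.21 and lay in the bodies of Evi2b and Evi2. Peaks there cannot be given to Nf1 rather than to the embedded genes. Omg, a further gene embedded in Nf1, had no TSS peak in any library. Outside the cluster a region at 155 kb was called in replicates 1 and 3, with folds of 4.09 and 4.40.

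**Figure D3:**
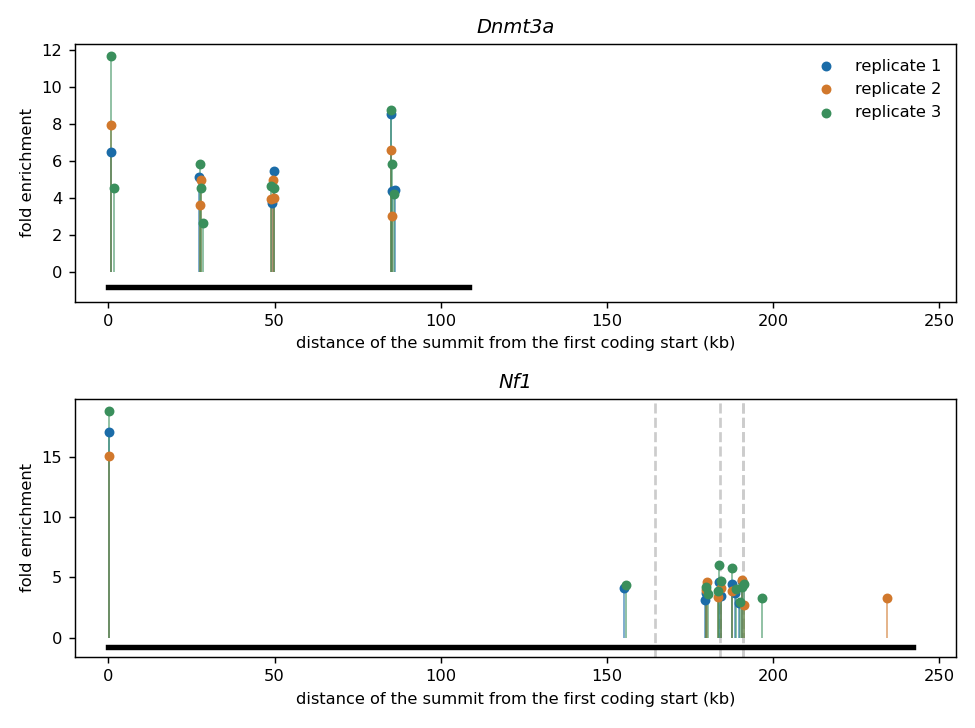
Fold enrichment of each called peak (y axis) by the distance of its summit from the first coding start in kb (x axis) along Dnmt3a and Nf1, with 1 colour per library and a black bar for the length of the gene. Dashed lines mark the first coding starts of genes embedded in Nf1 on the opposite strand (Omg, Evi2b, then Evi2 and Evi2a). Dnmt3a peaks fall at 4 places, and most intragenic Nf1 peaks at 179 to 191 kb.

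In every library in which one of the 9 genes had both kinds of peak, the TSS peak was the higher. Both kinds were present in 3, 4 and 3 of the 9 genes in replicates 1, 2 and 3. Over all genes with both kinds the TSS peak was the higher in 84.7%, 87.4% and 85.7% of genes. For Nf1 the TSS fold was 3.31 times that of its strongest intragenic peak, a log2 ratio of 1.73 ± 0.13, and for Dnmt3a it was 1.71 times, a log2 ratio of 0.77 ± 0.20, in the same direction in 3 of 3 libraries (p = 0.25 for each, the smallest the exact sign-flip permutation test can give). In each library the strongest intragenic peak of Nf1 lay within 2.5 kb of a coding start of Evi2a, Evi2b or Evi2. That peak cannot be given to Nf1, so the Nf1 ratio may compare promoters of different genes. Over all genes with both kinds of peak the median ratio was 1.93, 2.04 and 1.99 in replicates 1, 2 and 3.

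Tet2 was the only one of the 9 genes with a super-enhancer in at least 2 libraries, where 17.7% of protein-coding genes with a TSS peak in at least 2 libraries had one. A super-enhancer here is a set of peaks stitched within 12.5 kb whose fold times length is past the point of slope 1 on the ranked curve. This rule called 1383, 1083 and 1190 super-enhancers in replicates 1, 2 and 3. The paper, with HOMER on tag counts, reports far fewer in at least 2 of its 3 samples. The calls here are therefore not comparable with those of the study. The Tet2 region was called in all 3 libraries, at rank 1292 of 11779, 653 of 12327 and 962 of 11525. It held nothing but the promoter acetylation, 1.97 to 2.16 kb long. The call depended on the rule: with peaks near coding starts left out, or with ranking by summed fold or by summed length alone, 0 of the 9 genes had a super-enhancer.

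The 9 genes were also set beside related genes, by the highest fold at any coding start (9 pairs). Tet2 was at the level of Tet3, with 1.06 times its fold, and had 3.73 times the fold of Tet1, which was 3.76, 4.63 and 4.56. Nras had 2.64 times the fold of Hras. Ptpn11 had 1.94 times that of Ptpn6, which encodes the phosphatase SHP1. Dnmt3a had 1.47 times that of Dnmt3b and 1.26 times that of Dnmt1, and Dnmt3l, a catalytically inactive relative, had a TSS peak only in replicate 2. In the other direction, Asxl2 had 1.68 times the fold of Asxl1, at 12.8, 14.3 and 18.4, and Npm3 had 1.77 times that of Npm1, at 10.0, 8.75 and 14.1. Asxl3 and Npm2 had no TSS peak in any library. Idh2 had 1.15 times the fold of Idh1, whose value here is that of the peak upstream of its first start. That peak cannot be given to Idh1 rather than to Pikfyve. By the highest fold at any coding start, each difference had the same direction in 3 of 3 libraries. By that measure only the ranges of Tet2 with Tet3 and of Idh1 with Idh2 overlapped. The Dnmt3a value in replicate 1 was that of its internal start, at 8.53. Its first start there had a fold of 6.49, below Dnmt3b at 7.51 and Dnmt1 at 6.995. In replicates 2 and 3 the first start of Dnmt3a was above both, at 7.94 and 11.7. With that start alone, neither pair kept its direction in 3 of 3 libraries, and the ranges of both pairs overlapped. With the highest fold at any coding start, all 9 exact sign-flip permutation tests gave p = 0.25 (0.25 after Benjamini-Hochberg adjustment). This is the smallest possible p, so none passed.

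Acetylation in the wider pathways was described by companion lists, read against the 43.3% of all protein-coding genes with a TSS peak in all 3 libraries. Of 16 RAS pathway genes 15 had a TSS peak in all 3 libraries and 12 were above the median fold in each. The share of all genes above the median fold in all 3 libraries was not determined, so the 12 cannot be called many or few. Gab2, an adaptor, was highest at the 94.5 percentile, Ptpn6 was lowest and below the median, and there was no peak at Rras2. Of 7 ASXL and BAP1 partners 6 had a TSS peak in all 3, with the deubiquitinase gene Bap1 at the 97.2 percentile and Foxk1 lowest at 51.9. Of 6 other genes of DNA methylation 5 had one, from Tet1 at the 7.44 percentile to Tet3 at 77.5. All 6 genes of isocitrate metabolism had one, from Idh3b at 29.1 to Idh3g at 86.9, both for subunits of the NAD-dependent enzyme. Of 4 genes of the nucleophosmin family and nucleolus 3 had one, from Npm3 at 56.7 to Ncl (nucleolin) at 88.9. Of 23 further genes mutated in myeloid leukaemia 21 had one, from Csf3r, the G-CSF receptor gene, at 25.1 to the splicing factor gene Sf3b1 at 98.6, with none at Wt1. The median percentile of the listed genes with a TSS peak in all libraries was 73.4 for the RAS pathway, 75.6 for ASXL and BAP1 partners, 32.9 for DNA methylation, 39.4 for isocitrate metabolism, 82.1 for the nucleolar genes and 57.2 for the further leukaemia genes.

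**Figure D4:**
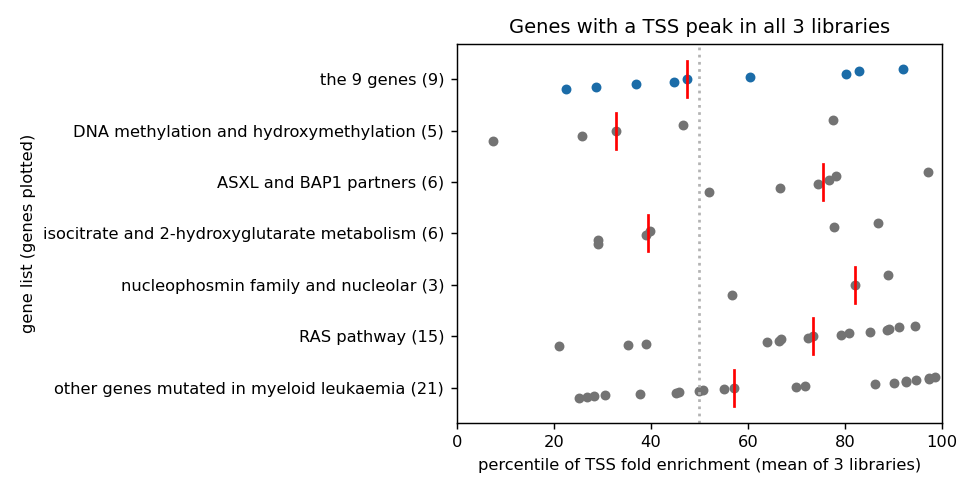
Percentile of TSS fold enrichment (x axis, mean of 3 libraries, among all protein-coding genes with a TSS peak) for the 9 genes (blue) and the genes of each companion list (grey), with 1 point per gene that had a TSS peak in all 3 libraries and its number in brackets. Red bars are medians and the dotted line is the median of all genes. The 9 genes span 22.5 to 92.1, and the RAS pathway median is 73.4.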

How the data were processed

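H3K27ac ChIP-seq peak lists of 3 BcorΔE9-10 KL libraries were used, each called separately by the authors. Single-end reads had been aligned with bowtie2, duplicates removed and peaks called with MACS2 (2.1.1 in the submitters' processing notes), and the control and settings were not given in the sources used here. The lists deposited by the authors hold a fold enrichment (a ratio to the local background, not scaled between libraries), the −log10 p-value, the −log10 q-value and a score (10 times the −log10 q as a whole number, not used further). The largest q was 0.0499.

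Rows sharing an interval were taken as 1 peak with its highest fold. Coordinates are GRCm38, counted from 1, and chromosomes 1 to 19, X and Y were kept. Peak ends reached at most 99.9% of a chromosome of RefSeq GRCm38. Gene models were GENCODE M21, and promoter sequences RefSeq (GRCm38.p6). Fragments at each summit were solved from its fold and p-value, which gave an answer for 100% of rows within 0.001 of the −log10 p. Depth followed from the lowest background with fragments of 200 bp. Peaks were counted as TSS peaks within 2.5 kb of a protein-coding start and stitched within 12.5 kb for super-enhancers, which the study called with HOMER on tag counts. Values are means and SDs over 3 libraries. Ratios within a library were tested with a two-sided exact sign-flip permutation test. Scripts (Python 3.11.15, pandas 2.3.3, scipy 1.17.1) were tested on simulated data.

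The 9 genes and all lists were chosen with earlier results of these data known. The genes named are the 9, genes with a coding start in or within 10 kb of them, their relatives in the companion lists, and the highest and lowest of each list. Lymphoid markers are given as a count only, and a comparison with 1 further relative is not reported here. Alternatives were windows of 1 and 5 kb, other sets of starts, a −log10 q of at least 5, −log10 p in place of fold, other stitching (5 and 20 kb) and ranking, and each library left out.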

Additional observations from a re-analysis of the deposited data

How the results depend on the processing

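All 9 genes kept a TSS peak in every library under each alternative tried, and Dnmt3a and Nf1 kept an intragenic peak in every library under each window, set of starts and threshold. Idh1 joined them when only the first coding start was used (3 genes), and a peak in at least 2 libraries also gave 3. The median fold percentile of the 9 genes stayed within its SD of 47.6 throughout. The median breadth percentile of 73.1 became 75.7 with a window of 1 kb, 71.2 with 5 kb, 76.9 with the starts of every transcript and 75.4 with the width of the highest TSS peak alone, where Npm1 moved from 38.9 to 14.9 and Idh1 from 73.5 to 31.1. The median ratio of TSS to strongest intragenic peak was 3.16 over the 5 genes with an intragenic peak in at least 1 library. This value is the ratio of Asxl1, which came from replicate 3 alone. The median ratio became 2.38 with a −log10 q of at least 5. With −log10 p in place of fold it became 7.01, where it is a ratio of −log10 p. The count of 1 gene with a super-enhancer (Tet2) became 2 with stitching within 5 kb (Tet2 and Nf1) and 0 with peaks near coding starts left out, with summed fold or with summed length. With stitching within 20 kb it was again 1, but Ptpn11 in place of Tet2. The cause was not tested.

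Leaving out each library in turn gave 9 to 9 genes with a TSS peak, 2 to 3 with an intragenic peak, 1 to 1 with a super-enhancer, a median fold percentile of 43.4 to 51.4, a breadth percentile of 72.1 to 73.9 and a ratio of 2.78 to 3.16. The third gene with an intragenic peak, without replicate 3, was Ptpn11. Intragenic peaks called in 1 library rested on 9 to 19 fragments, and depth was not varied. No paired analysis was possible because the 3 libraries form 1 group, which leaves no second group to pair by replicate number. The ratios tested were within libraries.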
